A study of Mus musculus with 16 samples.

Results

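Experimental autoimmune encephalomyelitis (EAE) is an induced autoimmune disease of the central nervous system, studied here in mice. The mRNAs of the Cd180-Ly86 complex, 6 Toll-like receptors, the co-receptor Cd14 and the adaptor Myd88 were followed in libraries labelled as brain microglia. They are Cd180, Ly86, Tlr1, Tlr2, Tlr3, Tlr4, Tlr7, Tlr9, Cd14 and Myd88, picked by gene symbol, and all 10 were present among the 21878 mRNAs of the tables and were kept among the 17885 that were tested. Cd180 was chosen from its fold change and its weight in classifiers on these same 16 libraries, and its partner and the other receptors were added with the results of the EAE against PBS comparison known, so their EAE and PBS levels are given as a description with no p-value. Where a fit over all mRNAs called a gene of the 10, this is stated beside the share of all mRNAs that the fit called, and is not evidence for that gene. The mice were female C57BL/6, wild type and 8 weeks old. EAE mice (n = 8) received the myelin oligodendrocyte glycoprotein peptide MOG 35-55 in complete Freund's adjuvant, with 200 ng of pertussis toxin on days 0, 2 and 7, and brains were taken on day 14, at the peak of disease by the study's methods. PBS-treated mice (n = 8) were given PBS on the same schedule, so the adjuvant and the toxin differ between the groups together with the peptide. In the treatment labels the last residue of the peptide runs from 55 to 62 over the EAE mice, whereas the protocol names 55 for each. CD11b+/CD45int cells were sorted, and 1 ribosome-depleted stranded library was sequenced per mouse.

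Toll-like receptors are membrane proteins that sense microbial and endogenous molecules, and in the brain they are found above all on microglia. TLR1, TLR2 and TLR4 act at the cell surface, where TLR2 pairs with TLR1 to sense lipopeptides and TLR4 senses lipopolysaccharide that CD14 delivers, while TLR3, TLR7 and TLR9 sense nucleic acids in endosomes. MYD88 is the adaptor of all of these receptors except TLR3, which signals through TRIF. CD180 resembles TLR4 outside the cell but lacks the signalling domain inside it, and it reaches the surface bound to the secreted protein that Ly86 encodes. It is best known on B cells, where it drives proliferation, and on myeloid cells, where it restrains TLR4.

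The promoters of Cd180, Ly86 and Tlr2 are shown because these 3 mRNAs had the highest ratios of EAE to PBS levels among the 10. Each runs from 250 bases before to 50 bases after a transcription start of RefSeq on GRCm38.p6, which holds 9 such sequences for 7 of the 10 genes (Cd180, Ly86, Tlr1, Tlr2, Tlr3, Tlr9 and Myd88). The windows are chr13:102693297-102693596 on the plus strand for Cd180, chr13:37345095-37345394 on the plus strand for Ly86 and chr3:83841559-83841858 on the minus strand for Tlr2. Capitals mark matches to the NF-kappaB letters described in the next paragraph.
Cd180: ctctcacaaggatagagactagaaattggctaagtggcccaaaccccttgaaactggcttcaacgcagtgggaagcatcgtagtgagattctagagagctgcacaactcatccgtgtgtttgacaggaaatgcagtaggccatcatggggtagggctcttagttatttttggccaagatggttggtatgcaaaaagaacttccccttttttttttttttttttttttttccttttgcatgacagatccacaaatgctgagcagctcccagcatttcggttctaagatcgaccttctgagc
Ly86: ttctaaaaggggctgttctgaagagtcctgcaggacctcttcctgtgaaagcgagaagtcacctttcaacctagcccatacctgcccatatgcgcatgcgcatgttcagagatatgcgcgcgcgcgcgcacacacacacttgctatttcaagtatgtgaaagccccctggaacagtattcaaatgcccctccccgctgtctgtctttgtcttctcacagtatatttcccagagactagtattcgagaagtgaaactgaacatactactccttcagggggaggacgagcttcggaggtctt
Tlr2: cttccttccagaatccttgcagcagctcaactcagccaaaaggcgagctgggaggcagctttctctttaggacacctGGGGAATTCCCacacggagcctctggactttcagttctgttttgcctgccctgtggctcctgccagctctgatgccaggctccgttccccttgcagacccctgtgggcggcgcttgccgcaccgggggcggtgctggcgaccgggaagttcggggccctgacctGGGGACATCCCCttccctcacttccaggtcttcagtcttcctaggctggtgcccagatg

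Motifs of 4 factors of inflammatory transcription were searched on both strands of each window. These were GGGNNNNNCC for NF-kappaB, GAGGAA for PU.1, GAAANNGAAA for the interferon-stimulated response element and TGANTCA for AP-1. Among 32851 promoters of the same length, 50.8% held the NF-kappaB letters, 28.3% those of PU.1, 3.44% those of the response element and 7.81% those of AP-1. The Tlr2 promoter held 5 overlapping NF-kappaB matches, which lie in 2 places beginning at positions -173 and -9 from the start. None of the 4 motifs was found in the Cd180 and Ly86 windows. The NF-kappaB letters also occurred in the Tlr3 promoter, those of PU.1 in the Tlr9 promoter and at 1 of 2 starts of Tlr1, those of AP-1 in the Tlr9 promoter and those of the response element, as GAAAGCGAAA, in the Myd88 promoter. A match of these letters is a description of the sequence and not evidence of binding.

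Libraries held 24587443 to 30244215 counts in EAE mice and 26031889 to 34184576 counts in PBS-treated mice. Of 12 microglia markers, the summed FPKM was 107 to 170 (median 146) in EAE mice and 91.3 to 162 (median 110) in PBS-treated mice, and the defining genes Tmem119, P2ry12 and Cx3cr1 were present in each library at 3.56 FPKM or more. Against the sorted label, the summed FPKM of 7 neuron markers was 792 to 1034, that of 6 astrocyte markers 827 to 1202 and that of 6 oligodendrocyte markers 878 to 1238 over the 16 libraries, above the microglia sum in each. EAE 6, 7 and 8 were more alike than other EAE libraries, and PBS 5, 7 and 8 than other PBS libraries: the variance between them was 3.04 to 4.30 times the sampling noise, and 6.14 to 29.5 times for all other pairs within a group. The other 5 EAE libraries were not 1 uniform set. Pairs with EAE 4 or EAE 5 were at 15.6 to 28.6 times. EAE 1, 2 and 3 were at 7.66 to 8.88 times among themselves and at 6.14 to 7.96 times against EAE 6, 7 and 8. Neither the labels nor the methods name a batch that these libraries share, and the 10 mRNAs are also described with these libraries alone and without them.

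In PBS-treated mice, Cd14 had the highest level of the 10 mRNAs and Tlr1 the lowest. FPKM scales counts by transcript length and library total, so levels of different genes can be set side by side. The mean levels were 8.07 ± 4.50 FPKM for Cd14 (SD, n = 8), 4.45 ± 1.21 for Myd88, 3.35 ± 0.531 for Tlr7, 3.31 ± 0.750 for Ly86, 2.21 ± 0.258 for Tlr3, 1.78 ± 0.810 for Tlr2 and 1.67 ± 0.186 for Tlr9. Cd180 followed at 0.591 ± 0.207 FPKM, Tlr4 at 0.528 ± 0.108 and Tlr1 at 0.409 ± 0.159. Neighbours in this order had overlapping ranges over libraries, except that the lowest Tlr9 value, 1.51 FPKM, was above the highest Cd180 value, 0.972 FPKM. Much of the lead of Cd14 came from PBS 5, 7 and 8, where its mean was 13.4 FPKM. In the other 5 PBS libraries Cd14 was still the highest by mean, at 4.90 FPKM, beside 4.41 FPKM for Myd88. Precision was lowest for Tlr1 and Cd180: the smallest Tlr1 count was 16 (PBS 6), for which counting error alone gives an exact 95% Poisson interval of 0.0925 to 0.263 FPKM around 0.162, and the smallest Cd180 count was 26 (PBS 1), with an interval of 0.281 to 0.629 FPKM around 0.429.

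Cd180, which encodes the receptor of the complex, was about 2.38 times as abundant in EAE as in PBS-treated mice by mean FPKM. Its FPKM was 1.70, 1.43, 1.43, 0.646, 2.67, 1.11, 1.27 and 0.985 in EAE 1 to 8, and 0.429, 0.547, 0.522, 0.972, 0.618, 0.463, 0.818 and 0.363 in PBS 1 to 8. All EAE libraries except EAE 4 lay above the highest PBS library, PBS 4, and EAE 4 lay below PBS 4 and PBS 7, so the groups overlapped. The group means were 1.41 ± 0.604 FPKM in EAE and 0.591 ± 0.207 FPKM in PBS-treated mice (SD, n = 8 each), and the log2 fold change (log2FC) in edgeR's quasi-likelihood fit over all mRNAs was 1.19 (SE 0.25). Cd180 was the only mRNA of the 10 with a Benjamini-Hochberg adjusted p under 0.05 in that fit, which called 118 of 17885 mRNAs higher (0.660%) and 315 lower (1.76%). It was also among the 17 higher mRNAs (0.0951%) that passed a log2FC of 1, and nothing is read from these shares because Cd180 was chosen on this contrast. When each library was left out in turn, its log2FC ran from 0.99 without EAE 5 to 1.33 without PBS 4, which is likewise a description. By the study's own qRT-PCR and Western blot, CD180 showed no significant difference between the groups. The gene lies on chromosome 13 from 102693558 to 102739629 on the plus strand of GRCm38 (GENCODE M21). Its longest coding transcript by summed exon length has 3 exons, and the gene overlaps the opposite-strand gene Mast4. The strand setting of the counting is not given in the sources used here, so reads of the overlap cannot be assigned, and Mast4 itself had a log2FC of 0.07 (SE 0.04).

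**Figure D1:**
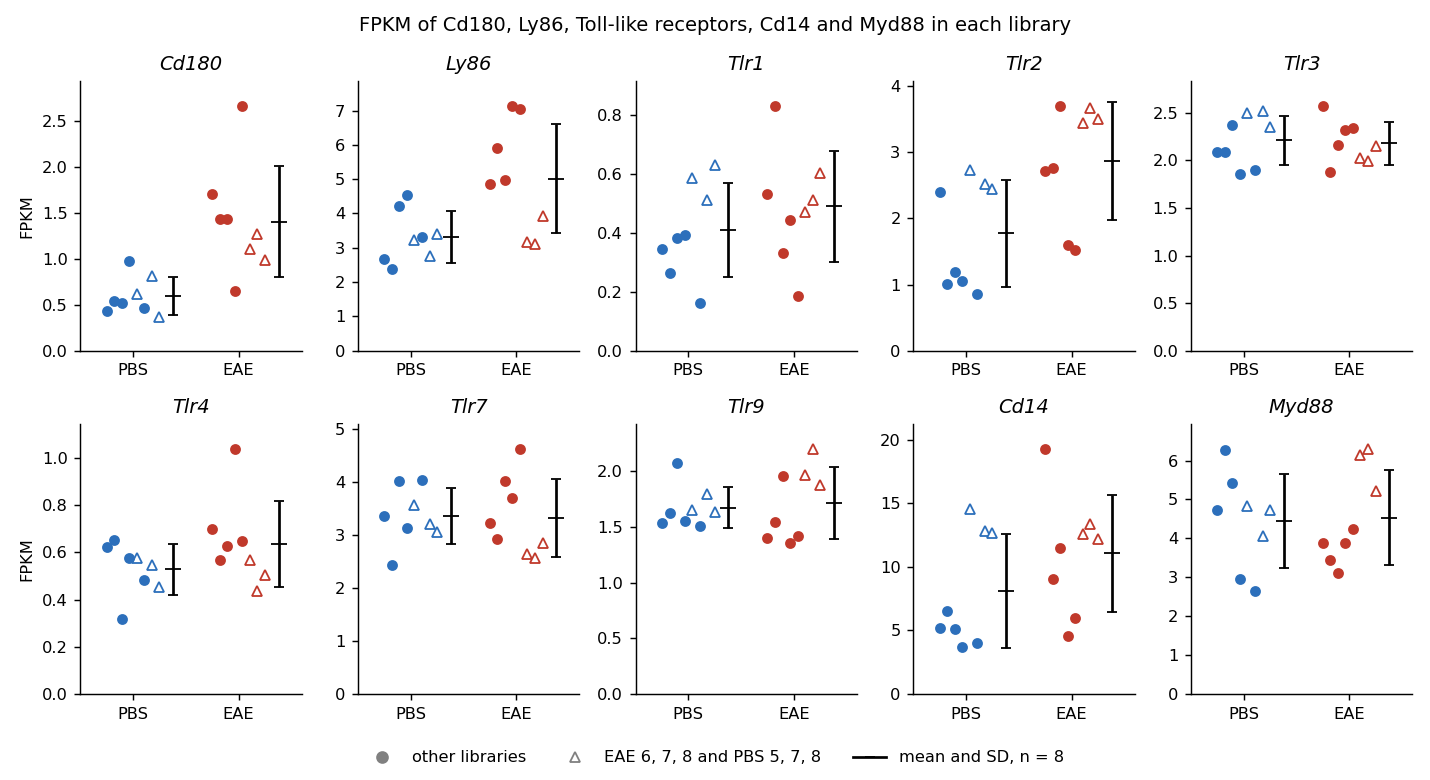
FPKM of each of the 10 mRNAs (1 panel per gene, y axis in FPKM from 0) in 8 PBS and 8 EAE libraries, with triangles for EAE 6, 7, 8 and PBS 5, 7, 8, circles for the others, and the mean with SD in black. Cd180 shows 7 of 8 EAE libraries above all PBS libraries, whereas in Cd14 the 3 PBS triangles lie among the EAE points.

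Ly86, which encodes the secreted partner that carries CD180 to the surface, was 1.51 times as abundant in EAE by mean FPKM. Its FPKM was 4.85, 5.92, 4.98, 7.14, 7.03, 3.17, 3.10 and 3.92 in EAE 1 to 8, and 2.66, 2.37, 4.20, 4.54, 3.22, 3.31, 2.76 and 3.42 in PBS 1 to 8. EAE 1 to 5 all lay above the highest PBS library, and EAE 6, 7 and 8 lay within the PBS range. The means were 5.01 ± 1.59 and 3.31 ± 0.750 FPKM (SD, n = 8 each) with a log2FC of 0.55 (SE 0.18), and Ly86 was not called. Ly86 lies on chromosome 13 from 37345208 to 37419036 on the plus strand, has 5 exons, and overlaps no other annotated gene.

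Cd180 was the lower-expressed partner in each library. The ratio of Cd180 to Ly86 FPKM was 0.295 ± 0.102 in EAE (range 0.0904 to 0.409) and 0.183 ± 0.0632 in PBS-treated mice (range 0.106 to 0.296; SD, n = 8 each). In EAE 1, 5, 6 and 7 the ratio was above all PBS libraries, and EAE 4, where Cd180 was lowest and Ly86 highest of the EAE libraries, had the lowest ratio of the 16. Across libraries within a group, the levels of the partners were not shown to move together. Pearson's r of log2(FPKM + 0.1) was 0.178 (two-sided exact permutation p = 0.680) and Spearman's rho 0.143 (exact p = 0.752) in EAE, and r was 0.279 (exact p = 0.4998) and rho 0.119 (exact p = 0.793) in PBS-treated mice. These are 2 of 10 such relations computed, and the Benjamini-Hochberg adjusted p of their r was 0.850 and 0.714. Without EAE 4 and EAE 5, the libraries farthest from the median of Cd180, r was 0.620 (exact permutation p = 0.20), and without PBS 4 and PBS 7 it was -0.0656 (exact permutation p = 0.897).

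Of Tlr1, Tlr2 and Tlr4, Tlr2 differed most between the groups. Its FPKM was 2.72, 2.77, 3.71, 1.605, 1.53, 3.44, 3.67 and 3.50 in EAE 1 to 8, and 2.40, 1.01, 1.20, 1.05, 2.74, 0.865, 2.52 and 2.44 in PBS 1 to 8. EAE 2, 3, 6, 7 and 8 lay above all PBS libraries and EAE 1, 4 and 5 within their range, and PBS 1, 5, 7 and 8 were the highest of the PBS libraries. The means were 2.87 ± 0.887 and 1.78 ± 0.810 FPKM (SD, n = 8 each), with a log2FC of 0.64 (SE 0.25), and Tlr2 was not called. It lies on chromosome 3 from 83836272 to 83841767 on the minus strand and has 3 exons. Tlr1, its partner for lipopeptides, had 0.489 ± 0.189 FPKM in EAE and 0.409 ± 0.159 FPKM in PBS-treated mice, and its log2FC was 0.20 (SE 0.28) on 16 to 77 counts per library. Tlr1 has a close paralogue in its neighbour Tlr6, and how reads matching both were counted is not given in the sources used here. Within PBS-treated mice, r of Tlr2 and Tlr1 was 0.799 (exact permutation p = 0.0145) and rho 0.833 (exact permutation p = 0.0154), which did not pass adjustment over the 10 relations (adjusted p = 0.0914 and 0.140, exact permutation). PBS 5, 7 and 8 were the highest 3 libraries for both genes, the other 5 are too few for a value of their own, and r was 0.594 without PBS 2 and PBS 6 (exact permutation p = 0.268). In EAE mice r of the pair was 0.471 and rho 0.191 (exact permutation p = 0.251 and 0.665), and r turned to -0.646 without EAE 4 and EAE 5 (exact permutation p = 0.183).

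Cd14, which hands lipopolysaccharide to TLR4, varied more between libraries of a group than between the groups. Its FPKM was 19.3, 9.04, 11.5, 4.59, 5.97, 12.6, 13.4 and 12.2 in EAE 1 to 8, and 5.18, 6.55, 5.11, 3.67, 14.6, 3.997, 12.8 and 12.7 in PBS 1 to 8. PBS 5 lay above 7 of the 8 EAE libraries and PBS 7 and 8 above 6, and the other 5 PBS libraries were below all EAE libraries except EAE 4 and EAE 5. The means were 11.1 ± 4.61 and 8.07 ± 4.50 FPKM (SD, n = 8 each), with a log2FC of 0.40 (SE 0.30). Tlr4 had 0.637 ± 0.182 FPKM in EAE, from 0.438 to 1.04 with a median of 0.599, and 0.528 ± 0.108 FPKM in PBS-treated mice, from 0.317 to 0.653 with a median of 0.559, and its log2FC was 0.22 (SE 0.16). The highest Tlr4 value was that of EAE 4, the EAE library with the lowest Cd180 and Cd14, and without it the log2FC of Tlr4 was 0.09. In EAE mice r of Cd14 and Tlr4 was -0.600 and rho -0.381 (exact permutation p = 0.115 and 0.360), and r was 0.343 without EAE 4 and EAE 5 (exact permutation p = 0.519). In PBS-treated mice r of this pair was 0.0803 and rho 0.0238 (exact permutation p = 0.874 and 0.977), and r was -0.114 without PBS 5 and PBS 7 (exact permutation p = 0.801).

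The endosomal receptors had nearly equal means in both groups. Tlr3, the receptor of double-stranded RNA, had 2.18 ± 0.226 FPKM in EAE and 2.21 ± 0.258 FPKM in PBS-treated mice (SD, n = 8 each), with a log2FC of -0.07 (SE 0.08). Its coefficient of variation was 10.3% in EAE and 11.7% in PBS-treated mice, the lowest of the 10 in EAE and close to the 11.1% of Tlr9 in PBS-treated mice, and that of Cd180 was 43.0% and 34.9%. Tlr7, the receptor of single-stranded RNA, had 3.32 ± 0.732 and 3.35 ± 0.531 FPKM with a log2FC of -0.06 (SE 0.12). Tlr9, the receptor of unmethylated CpG DNA, had 1.71 ± 0.322 and 1.67 ± 0.186 FPKM with a log2FC of -0.01 (SE 0.12). None of the 3 was called, and their ranges overlapped over most libraries, at 1.88 to 2.58 and 1.86 to 2.52 FPKM for Tlr3, 2.57 to 4.62 and 2.43 to 4.04 FPKM for Tlr7 and 1.35 to 2.20 and 1.51 to 2.08 FPKM for Tlr9. An antisense gene, Gm45542, overlaps Tlr3 in the annotation.

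Myd88, the shared adaptor, likewise had close means of 4.53 ± 1.22 FPKM in EAE and 4.45 ± 1.21 FPKM in PBS-treated mice, and its log2FC was -0.03 (SE 0.18). Within EAE mice its FPKM was 6.15, 6.30 and 5.22 in EAE 6, 7 and 8 and 3.10 to 4.23 in EAE 1 to 5, so that the similar means join libraries that did not overlap. PBS libraries ran from 2.64 (PBS 6) to 6.26 (PBS 2), with PBS 5, 7 and 8 at 4.84, 4.05 and 4.72. Myd88 lies on chromosome 9 from 119335934 to 119341411 on the minus strand, has 6 exons and overlaps Slc22a14 on its own strand and Acaa1a on the other. Acaa1a had a log2FC of -0.09 (SE 0.07), and Slc22a14 had a mean of 1.19 counts per library.

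No mRNA of the 10 separated the groups completely. Over all tested mRNAs, 29 (0.162%) had each EAE library above each PBS library and 18 (0.101%) had each EAE library below. The EAE libraries above all PBS libraries numbered 7 for Cd180, 5 for Ly86 and Tlr2, 2 for Tlr4 and 1 for each of the other 6. The median log2FC was 0.21 over the 10 and 0.01 over all tested mRNAs.

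The direction of several differences depended on which libraries were set against each other. With EAE 6, 7, 8 against PBS 5, 7, 8 alone, the log2FC was 0.87 (SE 0.30) for Cd180 and 0.44 (SE 0.11) for Tlr2, against 1.36 (SE 0.33) and 0.85 (SE 0.28) with the other 5 EAE against the other 5 PBS libraries. Ly86 had a log2FC of 0.09 (SE 0.20) in the former and 0.74 (SE 0.21) in the latter. The log2FC of Cd180, Ly86 and Tlr2 was above 0 in both sets, although for Ly86 in the former by less than its SE. These mRNAs were chosen with this contrast known in the same libraries, so the shared sign is a description only. Cd14 had a log2FC of -0.10 (SE 0.08) in the 3 against 3 libraries and 0.96 (SE 0.30) in the 5 against 5. Myd88 went the other way, at 0.35 (SE 0.11) and -0.32 (SE 0.22), as did Tlr9 at 0.22 (SE 0.14) and -0.18 (SE 0.16). The remaining 4 were below 0 in the 3 against 3 libraries and above 0 in the 5 against 5. Tlr1 was at -0.15 and 0.51, Tlr3 at -0.28 and 0.06, Tlr4 at -0.09 and 0.37 and Tlr7 at -0.32 and 0.06. Some of these values are small, and no change of sign was tested.

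Calls shifted in the same way. The 6 libraries of the 3 against 3 fit were picked for being alike, so its residual variance was small by construction. In the 3 against 3 libraries, Cd180, Tlr2, Tlr3, Tlr7 and Myd88 were called, in a fit that called 24.1% of its 17239 mRNAs, and Tlr3 and Tlr7 were then lower in EAE, with a log2FC of -0.28 (SE 0.09) and -0.32 (SE 0.10). In the 5 against 5 libraries none of the 10 was called, in a fit that called 0.0745% of 17461 mRNAs. With a term for the 2 sets in all 16 libraries, Cd180 and Tlr2 were called, where 4.29% of all mRNAs were. Within a group, the 3 libraries lay outside the range of the other 5 for Ly86, Tlr7 and Myd88 in EAE and for Tlr1, Tlr2 and Cd14 in PBS-treated mice. For Ly86 these EAE ranges were 3.10 to 3.92 and 4.85 to 7.14 FPKM, and for Cd14 the PBS ranges were 12.7 to 14.6 and 3.67 to 6.55 FPKM. The share of all mRNAs with such a gap was not computed. The 3 libraries were picked for being alike, so nothing is read about the 10 mRNAs from these gaps. The part of these library sets in the differences between EAE and PBS was not tested.

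**Figure D2:**
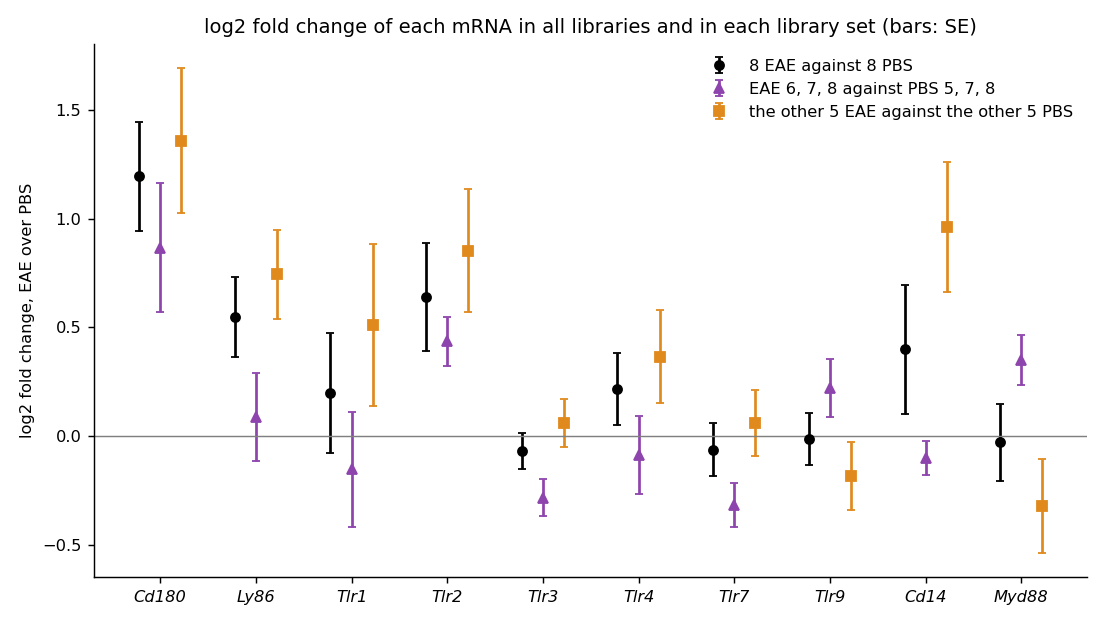
log2 fold change of EAE over PBS (y axis, bars are the SE) for each of the 10 mRNAs in 8 against 8 libraries, in EAE 6, 7, 8 against PBS 5, 7, 8, and in the other 5 against 5. Cd180 is above 0 in all 3 fits, at 1.19, 0.87 and 1.36, while Cd14 is at 0.40, -0.10 and 0.96 and Myd88 at -0.03, 0.35 and -0.32.

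In bulk libraries such as these, fewer cells of a type and less RNA per cell cannot be told apart. The microglia markers were therefore set beside Cd180 and Ly86. None of the 12 markers was called by edgeR, 2 had an unadjusted p under 0.05, both higher in EAE, and their median log2FC was 0.19. With their mean log2 level as a covariate, the log2FC was 1.05 (SE 0.26) for Cd180, 0.91 (SE 0.25) for Tlr2 and 0.27 (SE 0.16) for Ly86, which was 0.55 without it. Cd180 and Tlr2 were called in that fit, as were 4.63% of all mRNAs. Among EAE libraries, the marker mean fell into 2 separate ranges of log2(FPKM + 0.1), 2.36 to 2.47 in EAE 6, 7 and 8 and 2.84 to 3.16 in EAE 1 to 5. Ly86 was lower in the former 3 and higher in the latter 5, whereas Cd180 had both its lowest and its highest value in the latter, and each range holds too few libraries for a value of its own. Over all 8 EAE libraries, which joins these ranges, r of the marker mean with Ly86 was 0.825 (exact permutation p = 0.0183, adjusted p = 0.0914) and rho 0.786 (exact permutation p = 0.0279), and r was 0.774 without EAE 7 and EAE 8 (exact permutation p = 0.0833). For Cd180 r was 0.065 and rho 0.0714 (exact permutation p = 0.875 and 0.882), and r was -0.206 without the same 2 libraries (exact permutation p = 0.640). In PBS-treated mice, r with the marker mean was 0.612 for Cd180 (exact permutation p = 0.106, rho 0.357, p = 0.389) and 0.622 for Ly86 (exact permutation p = 0.0943, rho 0.476, p = 0.243). Without PBS 1 and PBS 4 these became -0.303 and -0.0594 (exact permutation p = 0.568 and 0.908), so the positive values rest on those 2 libraries. None of the 10 relations passed an adjusted p of 0.05 by the exact permutation test, and the 2 with an unadjusted p of r under 0.05 were the marker mean with Ly86 in EAE and Tlr2 with Tlr1 in PBS-treated mice.

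**Figure D3:**
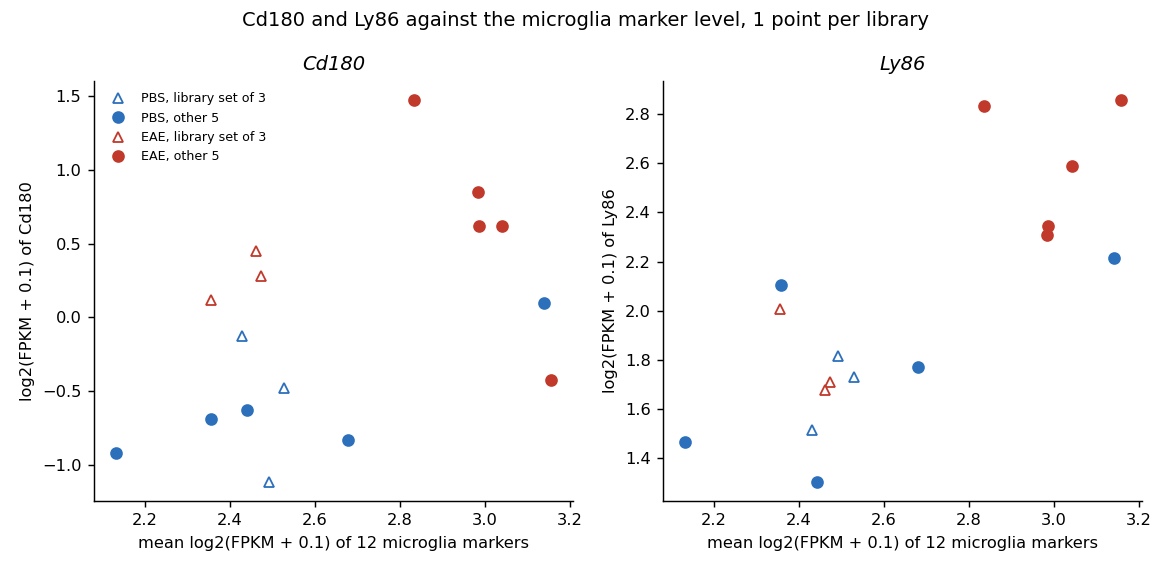
log2(FPKM + 0.1) of Cd180 (left) and Ly86 (right) against the mean log2(FPKM + 0.1) of 12 microglia markers, 1 point per library, with triangles for EAE 6, 7, 8 and PBS 5, 7, 8. EAE 6, 7 and 8 lie at marker means of 2.36 to 2.47 and the other EAE libraries at 2.84 to 3.16, and EAE 4 combines the highest marker mean with the lowest Cd180 of its group.

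Markers of B cells, monocytes, border macrophages, dendritic cells and neutrophils, which could carry CD180 or Toll-like receptors, were present at low or unequal levels. The far higher sums of neuron, astrocyte and oligodendrocyte markers are given above. Of the B cell genes, Ms4a1 reached at most 2 counts in a library, and Cd79a ran from 0.0613 to 0.545 FPKM. The sum over the 8 B cell genes in the tables was 2.45 to 3.90 FPKM in EAE and 1.74 to 3.13 FPKM in PBS-treated mice, and none was called by edgeR, with 1 at an unadjusted p under 0.05. The largest parts of this sum were Fcer2a, with means of 1.77 FPKM in EAE and 1.33 FPKM in PBS-treated mice, and Cr2, with 0.693 and 0.543 FPKM. The 6 monocyte markers summed to 2.81 to 6.26 and 2.01 to 6.62 FPKM, the 6 border macrophage markers to 3.33 to 7.97 and 3.15 to 6.42 FPKM, and the 5 dendritic cell markers to 5.88 to 8.29 and 5.71 to 8.19 FPKM. The 10 neutrophil markers summed to 49.6 to 101 FPKM in EAE and 19.3 to 57.6 FPKM in PBS-treated mice, and 4 of them, S100a8, S100a9, Ngp and Ltf, were called higher. EAE 6, 7 and 8 were at 94.3 to 101 FPKM and the other EAE libraries at 49.6 to 96.5, and PBS 5, 7 and 8 at 54.0 to 54.9 and the other PBS libraries at 19.3 to 57.6. Neutrophils carry TLR2, TLR4 and CD14, and the part of these cells in the differences of Cd180, Tlr2 and Cd14 was not tested.

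The rest of the Toll-like receptor pathway was followed in 83 further mRNAs, sorted into 8 roles, of which 81 passed the count minimum and Tlr11 and Ifnb1 did not. The lists were drawn up with earlier results of these data known, so the counts are a description and not independent evidence. In the edgeR fit over all mRNAs, 1 of the 81 was higher in EAE and 0 were lower at an adjusted p under 0.05. Beside these stood 118 (0.660%) higher and 315 (1.76%) lower of all 17885 mRNAs. At an unadjusted p under 0.05 the numbers were 20 and 1, beside 1416 (7.92%) and 1702 of all 17885 mRNAs. DESeq2 called 5 of the 81 higher and 1 lower, beside 297 and 602 of all mRNAs, and limma on log2(FPKM + 0.1) called 2 higher and 0 lower, beside 132 and 73. In the 3 against 3 libraries 26 were called higher, beside 1896 of all mRNAs, and in the 5 against 5 libraries 1 was (Il1rn), beside 8. The median log2FC of the 81 was 0.14, beside 0.01 over all tested mRNAs, and 61 of them were above 0, beside 52.6% of all tested mRNAs.

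The mRNA that passed was Vav1, a guanine nucleotide exchange factor that acts downstream of CD180 in B cells. It rose from 2.09 ± 0.341 FPKM in PBS-treated mice (1.74 to 2.72, median 2.08) to 2.90 ± 0.245 FPKM in EAE (2.39 to 3.21, median 2.96; SD, n = 8 each), with a log2FC of 0.42 (SE 0.10) and an adjusted p of 0.0255 by edgeR. The median EAE library lay above the highest PBS library and the lowest EAE library within the PBS range, so the groups overlapped. Its adjusted p was 0.0555 without EAE 1, 0.0517 without EAE 8 and 0.0612 without PBS 2, and 0.142 in the 5 against 5 libraries, all by edgeR. With library sizes from the 12 microglia markers the log2FC of Vav1 was 0.23 (SE 0.16, edgeR adjusted p = 0.403), where 7 of all mRNAs were called higher. Vav1 was called with the microglia marker mean as a covariate, where 300 of all mRNAs were called higher. Lyn, the kinase that starts CD180 signalling, had 5.99 ± 0.564 and 4.86 ± 0.410 FPKM in EAE and PBS-treated mice, and its log2FC was 0.25 (SE 0.07, edgeR adjusted p = 0.0630). Prkcb, a protein kinase C of the same route and the most abundant of these 5 genes, had 99.95 ± 3.11 and 99.2 ± 5.05 FPKM with a log2FC of -0.04 (SE 0.04).

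Genes that fold Toll-like receptors or bring ligand to them lay on both sides of 0, with 3 of 8 above 0 and none called. Hsp90b1, the chaperone of Toll-like receptors, had 92.8 ± 11.1 and 103.5 ± 6.91 FPKM with a log2FC of -0.21 (SE 0.06, edgeR adjusted p = 0.0844). Lbp, which loads lipopolysaccharide on CD14, had 5.43 ± 0.924 and 3.91 ± 0.873 FPKM with a log2FC of 0.42 (SE 0.13, edgeR adjusted p = 0.0867). Of the other receptors, all 5 tested were above 0 and none was called. Tlr13, a sensor of bacterial ribosomal RNA and the highest of them, had 2.65 ± 0.488 and 2.32 ± 0.440 FPKM with a log2FC of 0.14 (SE 0.12). Tlr5, the flagellin receptor, had 0.189 ± 0.0649 and 0.109 ± 0.0613 FPKM with a log2FC of 0.73 (SE 0.32), and Tlr6, which pairs with TLR2, had a log2FC of 0.41 (SE 0.32).

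Adaptors and kinases stayed close to the all-mRNA median. Of the 5 adaptors other than Myd88, Ticam1, which encodes TRIF, had a log2FC of 0.17 (SE 0.12), Pik3ap1 of 0.30 (SE 0.17) and Sarm1 of 0.00 (SE 0.07), and none was called. The 17 kinases and ubiquitin ligases had a median log2FC of 0.08 with none called, although 4 were higher at an unadjusted p under 0.05, beside 7.92% of all mRNAs. Irak4, the kinase that MYD88 recruits, had a log2FC of 0.43 (SE 0.19) and Tbk1, a kinase downstream of TRIF, of 0.13 (SE 0.06), both short of the adjusted threshold. Among 10 transcription factors, Irf7 had 2.37 ± 0.435 and 1.603 ± 0.382 FPKM with a log2FC of 0.51 (SE 0.16, edgeR adjusted p = 0.0885), Rela a log2FC of 0.20 (SE 0.10) and Jun of -0.04 (SE 0.12). The 12 negative regulators had a median log2FC of 0.24 and none was called, with Sigirr at 1.07 (SE 0.56) on 0 to 22 counts per library, Atf3 at 0.47 (SE 0.26) and Tollip at -0.04 (SE 0.05).

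Target genes of the pathway had the highest median of the 8 roles, with none past the adjusted threshold. Of 19 tested, 18 were above 0, the median log2FC was 0.95, and 10 were higher at an unadjusted p under 0.05, which 7.92% of all mRNAs were. Ccl5, a chemokine for T cells, had 2.85 ± 1.06 FPKM in EAE and 1.38 ± 0.538 FPKM in PBS-treated mice, and its log2FC was 0.98 (SE 0.28, edgeR adjusted p = 0.0646). Ccl3, a chemokine for monocytes and T cells, had 10.6 ± 5.04 and 4.55 ± 2.74 FPKM with a log2FC of 1.17 (SE 0.37, edgeR adjusted p = 0.0993). The EAE values of Ccl3 ran from 2.53 to 15.6 FPKM and the PBS values from 1.59 to 8.13 FPKM, so the groups overlapped. Il12b, a subunit of interleukins that polarise T cells, had at most 7 counts in any EAE library and at most 1 count in any PBS library, too few for a fold. With Il12b at its bound the median of the targets was 0.93. Without EAE 4 the number of pathway mRNAs called higher was 10, among them Ccl3, Ccl4, Ccl5 and Cxcl10, while the number over all mRNAs went from 118 to 502. Without EAE 5 it was 6 beside 292 of all mRNAs, without EAE 1 it was 0 beside 49, and without PBS 2 it was 0 beside 40.

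**Figure D4:**
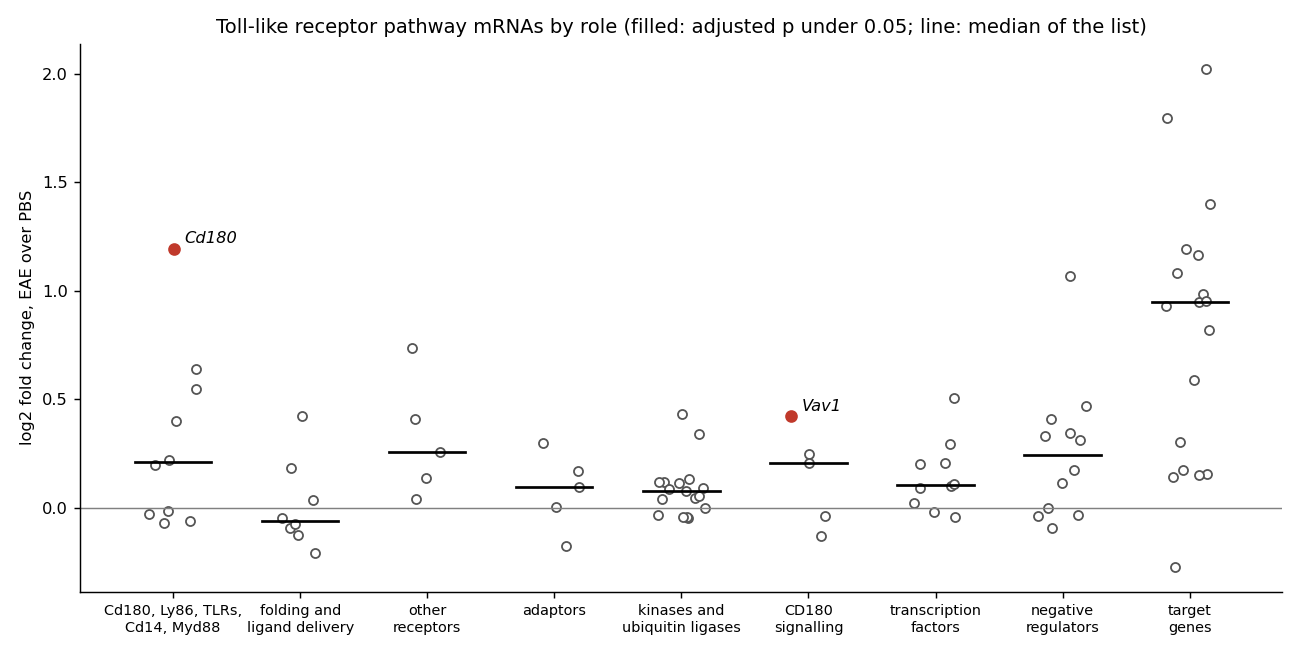
log2 fold change of EAE over PBS (y axis) for the 10 mRNAs and for the tested pathway mRNAs by role, 1 circle per gene without Il12b, with a line at the median of each list and filled circles for an adjusted p under 0.05 in the edgeR fit. Cd180 and Vav1 are the filled circles, and the target genes have the highest median, 0.95.

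The mRNAs whose variation across libraries was most like that of Cd180 did not include its partner. After each group's mean was subtracted, the highest Pearson r of log2(FPKM + 0.1) with Cd180 over 16 libraries, among 13952 mRNAs with at least 50 counts per library on average, belonged to Tlk1 (0.828), Skil (0.822), Akt1s1 (0.804), Ercc8 (0.782) and Dyrk2 (0.766). Ly86 had an r of 0.211 with Cd180 and stood at rank 2929. For Ly86 the highest were Creb1 (0.946), Trib2 (0.941), Metap2 (0.936), Zfp148 (0.9165) and Synj2 (0.912). Of the 10 mRNAs, Tlr1 fell short of that count, and among the others Tlr7 was the most like Ly86, with an r of 0.696, and the adaptor Myd88 the least, with an r of -0.601. These values share the libraries, their depths and the library sets described above, and are given as a description with no p.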

How the data were processed

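Total RNA of cells labelled as sorted microglia, from 8 EAE and 8 PBS-treated mice, was sequenced with 1 library per mouse. According to the labels, the authors used bcl2fastq, HISAT2 (2.1.0), HTSeq (0.11.2) and DESeq2 (1.22.2), and the methods name GRCm38 as the genome. The authors deposited a table of counts per mRNA, which are not normalized, and a table of FPKM, which on 7749 abundant mRNAs was checked to be the count divided by library total and length (largest relative spread 3.60e-10). The strand setting of the counting is not given in the sources used here.

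Counts as deposited were fitted with edgeR (4.0.16, TMM, quasi-likelihood, two-sided, R 4.3.3) over all 17885 mRNAs whose counts summed to 16 or more, and p-values were adjusted by Benjamini-Hochberg over all of them. The p-values measure the spread between mice, 8 per group. FPKM levels are mean ± SD. Relations within a group used exact permutation tests (scipy 1.17.1) of log2(FPKM + 0.1). No 2 libraries of a group agreed within sampling noise. Alternatives were RLE normalization, library sizes from microglia markers, other filters, DESeq2 (1.42.0), limma (3.58.1), a replicate block, a term for library sets, a covariate, and leaving out each library. Counting intervals cover counting error only. Scripts were tested on simulated data. There, 13.7% of the DESeq2 calls fell on unchanged mRNAs, beside 5.31% of the edgeR calls and 5.29% of the limma calls. The simulated libraries were drawn independently, with the spread that edgeR estimated and without library sets. These shares may therefore differ in the real libraries.

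The 10 mRNAs, the pathway and marker lists and the library sets were chosen with earlier results of these data known. Of the pathway lists, named genes are those with an adjusted p under 0.05 and, in each list, the 2 with the smallest p and the most abundant. Other target genes named beside left-out libraries, and Mast4, Acaa1a and Slc22a14, which overlap the 10, were named after their values were seen. So were the B cell genes Fcer2a and Cr2. The values of 2 marker genes are not reported here.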

Additional observations from a re-analysis of the deposited data

Results flagged for a closer look

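Tlr4 in EAE 4 stood apart from the other EAE libraries: its gap to the next library, divided by the range of the 8, was 0.567, above Dixon's 95% critical value for 8 samples. It had 1.04 FPKM there, where the group median was 0.599 FPKM. It was the only such value in 20 combinations of 10 mRNAs and 2 groups, and chance gives about 1 in 20.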

How the results depend on the processing

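The log2FC of Cd180, which was chosen on this contrast, ran from 0.57 with limma on log2(FPKM + 1) to 1.36 in the 5 against 5 libraries, around 1.19 as reported. Of the 10 mRNAs, 2 were called with a term for the library sets (Cd180 and Tlr2), beside 4.29% of all mRNAs. In EAE 6, 7, 8 against PBS 5, 7, 8 the number was 5, beside 24.1%. In the other 5 against 5 it was 0, beside 0.0745%, and with the microglia covariate it was 2, beside 4.63%. Ly86 and Tlr2 kept their sign throughout, and Tlr9 and Myd88 kept theirs in 18 of 28. Scaling library sizes to the microglia markers moved the median log2FC of all mRNAs from 0.01 to -0.17 and the calls to 7 higher and 48 lower, against 118 and 315, with Cd180 at 1.04.

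The number of pathway mRNAs called higher was 1 as reported (118 of all mRNAs) and 0 with microglia-marker library sizes (7). It was 5 with DESeq2 (297) and 1 in the 5 against 5 libraries (8). With limma it was 2 on log2(FPKM + 0.1) (132) and 2 on log2(FPKM + 1) (157). It was 10 with the library set term (242), 26 in the 3 against 3 libraries (1896) and 11 with the microglia covariate (300). When 1 library was left out, it was 0 to 10. The number lower was 0 as reported (315 of all mRNAs). It was 1 with DESeq2 (602), the set term (526) and the covariate (528), and 2 in the 3 against 3 libraries (2251). When 1 library was left out, the number lower was 0 to 1 (104 to 815). The cause was not tested.

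Same-numbered libraries share only a number: the correlation of their deviations from the group means was -0.121 to 0.382, and 3 of 8 EAE libraries correlated best with their own number. With a replicate block, 1 of the 10 mRNAs was called as before, and 3 pathway mRNAs were higher and 1 was lower. That fit called 150 of all mRNAs higher and 367 lower.

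Without the 2 libraries farthest from the median, r changed sign for Cd180 and Ly86 in PBS (-0.0656), Tlr2 and Tlr1 in EAE (-0.646), Cd14 and Tlr4 in EAE (0.343) and PBS (-0.114), the microglia mean with Cd180 in EAE (-0.206) and PBS (-0.303), and with Ly86 in PBS (-0.0594). Tlr1 (16 to 77 counts per library) and Cd180 (26 to 188) are limited most by depth.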
